A study of Mus musculus with 4 samples.

Results

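The genes described here are 10 rapidly induced genes: the AP-1 transcription factor genes Fos, Fosb, Jun, Junb and Atf3, the transcription factor genes Egr1 and Nr4a1, the feedback regulators Zfp36 and Dusp1, and Ier2. They were taken by gene name from a table of 21931 genes, and all 10 passed the filter on low counts that left 15055 tested genes. They were selected on their read counts in all 4 libraries, whose differences between genotypes were already known, so their values are given as a description and no test of them is offered as support. RNA was sequenced from fresh, untreated lung of mice of the strain C57BL6 aged 2 months. The Dnah9 knockout group had 2 libraries, and the groups labelled Hez and wild type had 1 library each. Dnah9 encodes a dynein heavy chain of motile cilia, and the sources used here give neither the deleted part of the gene nor the meaning of Hez.

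Immediate early genes are switched on within minutes by growth factors, cytokines, stretch or stress. This is because the factors that drive them, such as SRF and CREB, are already present in the cell and need only be activated. Fos, Fosb, Jun, Junb and Atf3 encode basic leucine zipper proteins that pair up into AP-1 dimers, Egr1 encodes a zinc finger factor and Nr4a1 an orphan nuclear receptor. The response is switched off by its own products: Dusp1 removes phosphate from MAP kinases, and Zfp36 (tristetraprolin) binds AU-rich elements and promotes the decay of cytokine and immediate early mRNAs. Most cell types of the lung can express these genes, and whole lung cannot tell more expressing cells from more RNA per cell.

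Promoter sequence was found for 8 of the 10 genes, and the stretches that hold matches are shown for 4 genes on which the results turn, to show which known response elements lie near their starts. They are RefSeq sequences of build GRCm38.p6, 5′ to 3′ on the strand of the gene. Capitals mark matches to TGACG, the core of the cyclic AMP response element (CRE), to GCGGGGGCG, a binding sequence of EGR factors, to TATAAA, and to the CArG box that SRF binds, on either strand. The 8-base match of Dusp1 is the full element TGACGTCA, which holds TGACG on both strands.
Fos: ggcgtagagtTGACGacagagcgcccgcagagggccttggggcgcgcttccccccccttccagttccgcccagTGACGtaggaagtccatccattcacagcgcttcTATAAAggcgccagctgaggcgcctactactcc
Nr4a1: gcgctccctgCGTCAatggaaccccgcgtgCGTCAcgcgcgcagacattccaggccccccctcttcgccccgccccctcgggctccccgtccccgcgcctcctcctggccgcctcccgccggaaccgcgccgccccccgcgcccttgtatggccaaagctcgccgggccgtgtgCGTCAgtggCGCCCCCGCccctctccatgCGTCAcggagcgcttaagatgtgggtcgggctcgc
Dusp1: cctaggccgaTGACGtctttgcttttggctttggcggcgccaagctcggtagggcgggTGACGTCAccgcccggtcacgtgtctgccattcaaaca
Zfp36: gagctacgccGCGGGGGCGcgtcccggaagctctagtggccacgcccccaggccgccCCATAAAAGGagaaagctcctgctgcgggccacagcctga

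The Fos stretch lies at chr12:85473751-85473889 on the plus strand, and its TGACG matches begin 129 and 66 bases before the transcription start. The Nr4a1 stretch lies at chr15:101266603-101266840 on the plus strand, with 4 matches to TGACG, all on the opposite strand, and 1 to GCGGGGGCG. The Dusp1 stretch lies at chr17:26508578-26508673 on the minus strand, with the full element 143 bases before the start. The Zfp36 stretch lies at chr7:28379247-28379343 on the minus strand, with the EGR sequence 105 and the CArG box 58 bases before the start. Within 300 bases around the start, 250 of them upstream, TGACG was present in 6 of the 8 genes (Fos, Fosb, Junb, Atf3, Nr4a1 and Dusp1) and in 20.8% of 32851 RefSeq mouse promoters. GCGGGGGCG was present in 3 of the 8 (Fosb, Nr4a1 and Zfp36) and in 2.91% of all promoters, TATAAA in 2 of the 8 (Fos and Junb) and in 13.6%, and the CArG box in Zfp36 alone and in 1.63%. TGACGTCA was found in 1.79% of all promoters, and the AP-1 sequence TGANTCA, found in 7.81%, was in none of the 8 windows. These matches are letters only and do not show that a factor binds there. Sequence farther from the starts was not searched, and Egr1 and Ier2 had no promoter sequence. A missing match therefore does not show that a gene lacks the element.

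Total read counts were 15860478 to 16553480 per library, so the precision was similar in all 4. The targeted gene Dnah9 had 240 and 254 reads in the knockout libraries, 420 in the Hez library and 917 in the wild-type library, so it was lowest in both libraries labelled knockout. Litters and batches are not given by the labels, so errors and p-values cover only the variation among these libraries, part of which may be technical. Markers of alveolar type 1 and type 2, endothelial, club and ciliated cells were all detected in every library. Cardiac and skeletal muscle, fat, mesothelial and blood cell markers were detected as well. Levels below are CPM, the read count scaled to library size by TMM, with 95% exact Poisson intervals that cover counting error only. FPKM, the read count also divided by gene length, is used to compare levels between genes.

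The wild-type library had the lowest level of all 10 genes, and the Hez library stood above it for all 10 as well. Both knockout libraries lay above wild type for 10 of 10 genes, which was so for 33.0% of all tested genes. Knockout 2 was the highest library for 9 of the 10, against 26.4% of tested genes. Wild type was the lowest of the 4 libraries for 24.2% of tested genes, and Hez lay above wild type for 49.5%. The median log2 fold of the 10 genes in knockouts over wild type was 0.92, against 0.00 over all tested genes. Together the 10 genes took 0.120% and 0.169% of the reads in knockout libraries 1 and 2, 0.126% in Hez and 0.0799% in wild type. Since the genes were chosen with this contrast known, nothing is read from these counts.

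**Figure D1:**
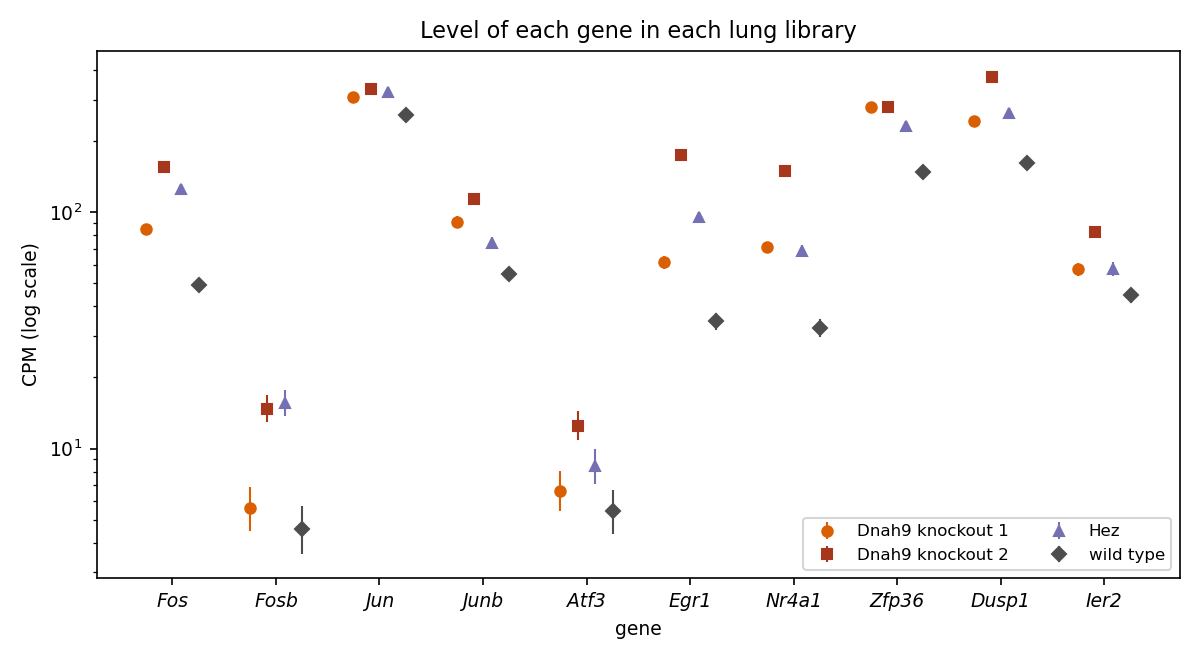
Level of each of the 10 genes (CPM, log axis) in the 2 Dnah9 knockout libraries, the Hez library and the wild-type library, with 95% exact Poisson intervals as bars (often smaller than the symbol). The wild-type diamond is the lowest point for every gene, and the square of knockout 2 is the highest for 9 of 10.

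Among the AP-1 genes, Fos, the prototype of the family (ENSMUSG00000021250, chromosome 12, 85520664 to 85524047 on GRCm39), stood at 84.7 and 156 CPM in knockout libraries 1 and 2, 125 in Hez and 49.1 in wild type. No neighbours in that order had overlapping intervals, and Hez lay between the knockouts. The log2 fold of knockouts over wild type was 1.29 (SE 0.307, n = 2 against 1). Jun, the main partner of Fos (ENSMUSG00000052684, chromosome 4, 94937271 to 94940459), varied least among the AP-1 genes. Its level was 309 and 331 CPM in the knockout libraries, 324 in Hez and 259 in wild type. The intervals of Hez overlapped those of both knockout libraries, and the log2 fold over wild type was 0.31 (SE 0.0964).

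Junb, which can oppose Jun at shared targets (ENSMUSG00000052837, chromosome 8, 85701113 to 85705347), had 91.3 and 114 CPM in the knockout libraries, 74.5 in Hez and 55.0 in wild type. Here both knockouts lay above Hez, and the 4 intervals were separate. The log2 fold was 0.90 over wild type (SE 0.145) and 0.46 over Hez (SE 0.141). Fosb and Atf3 were the least abundant of the 10 genes, at 74 to 258 and 88 to 199 reads. Fosb, a relative of Fos (ENSMUSG00000003545, chromosome 7), stood at 5.59 and 14.8 CPM in the knockout libraries, 15.6 in Hez and 4.57 in wild type. Its libraries formed 2 pairs with overlapping intervals, knockout 2 with Hez and knockout 1 with wild type. Atf3, a stress-induced partner of Jun (ENSMUSG00000026628, chromosome 1), had 6.64 and 12.5 CPM in the knockout libraries, 8.41 in Hez and 5.43 in wild type. The interval of knockout 1 overlapped those of Hez and wild type, and knockout 2 was the highest. The log2 folds of knockouts over wild type were 1.16 for Fosb (SE 0.524) and 0.82 for Atf3 (SE 0.397).

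Egr1 and Nr4a1 had the largest fitted folds over wild type of the 10 genes. Egr1 (ENSMUSG00000038418, chromosome 18, 34992876 to 34998037) had 61.5 and 174 CPM in the knockout libraries, 95.3 in Hez and 34.6 in wild type. That is 1.78 and 5.03 times the wild-type level in the knockouts and 2.75 times in Hez, with 4 separate intervals. The fitted log2 fold over wild type was 1.77, with a standard error of 0.512 that reflects the distance between the knockout libraries. Nr4a1 (ENSMUSG00000023034, chromosome 15, 101152150 to 101172676) stood at 71.0 and 149 CPM in the knockout libraries, 68.3 in Hez and 32.5 in wild type. Knockout 1 and Hez overlapped at 2.18 and 2.10 times the wild-type level, while knockout 2 reached 4.6 times. The log2 fold was 1.76 over wild type (SE 0.379) and 0.69 over Hez (SE 0.351).

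Of the genes that restrain the response, Zfp36 (ENSMUSG00000044786, chromosome 7, 28076209 to 28079678) had 278 CPM in each knockout library, 231.5 in Hez and 148 in wild type. It was the gene on which the knockout libraries lay closest, at 1.87 times wild type in both, with Hez at 1.56 times. The log2 fold was 0.91 over wild type (SE 0.0979) and 0.26 over Hez (SE 0.0947). Dusp1 (ENSMUSG00000024190, chromosome 17, 26724564 to 26781102) stood at 243 and 372 CPM in the knockout libraries, 262 in Hez and 161 in wild type, with no overlap of neighbouring intervals. Its log2 fold over wild type was 0.93 (SE 0.219). Ier2, which encodes a nuclear protein of the early growth response (ENSMUSG00000053560, chromosome 8, 85387960 to 85389483), had 57.4 and 82.6 CPM in the knockout libraries, 57.6 in Hez and 44.5 in wild type. Knockout 1 and Hez could not be told apart for Ier2 at this depth, and the log2 fold over wild type was 0.65 (SE 0.198). Parts of Dusp1 and Junb overlap Ergic1 and Prdx2 on the opposite strand, and the sources used here do not state whether counting used strand. The part of these overlaps in the 2 levels was not tested. Ergic1 had 1498 and 1357 reads in the knockout libraries, 1561 in Hez and 1457 in wild type, and Prdx2 had 1187 and 1086 in the knockout libraries, 1159 in Hez and 1266 in wild type.

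In the edgeR quasi-likelihood test over all genes, 1 of the 10, Zfp36, passed an adjusted p of 0.05 against wild type, with 0.0531% of all tested genes called in either direction, 0.0133% higher and 0.0399% lower. At an unadjusted p below 0.05 there were 8 of the 10, all higher in the knockouts. Of all 15055 tested genes 5.18% passed that p in either direction, 273 higher and 507 lower. The call of Zfp36 at an adjusted p of 0.05 held in 4 of 12 alternative tests (DESeq2 size factors, the DESeq2 Wald test, limma-voom and the fit without Hez). The DESeq2 Wald test called Junb as well. Because the contrast was known when the genes were chosen, the calls are a description.

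**Figure D2:**
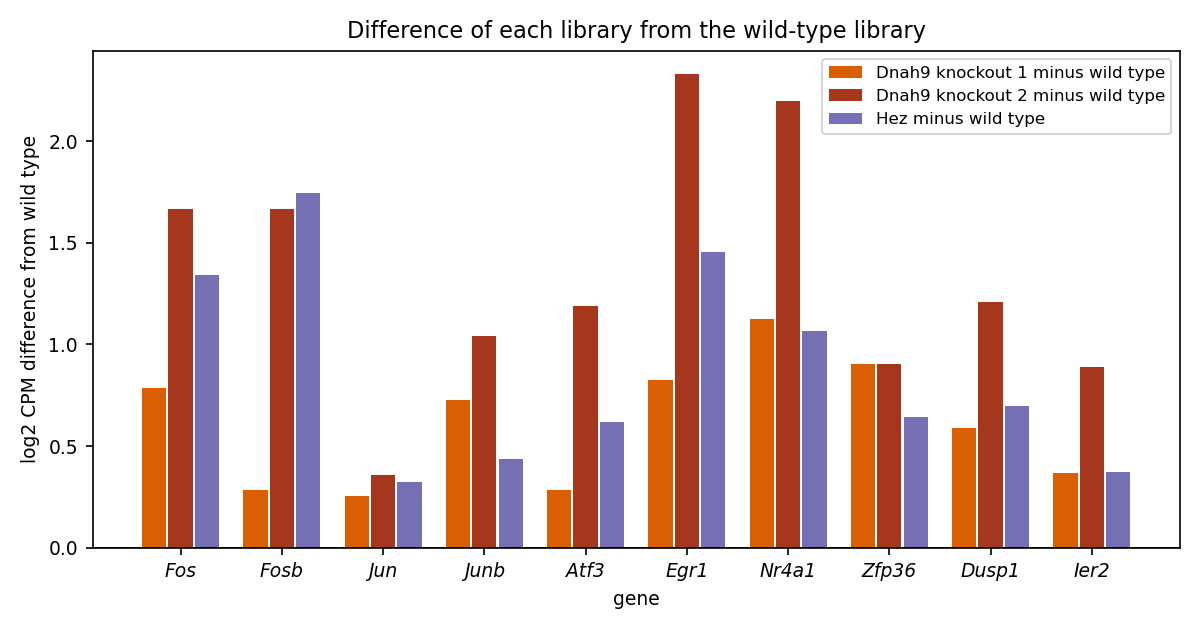
Log2 CPM difference from the wild-type library for each gene in Dnah9 knockout 1, Dnah9 knockout 2 and Hez, each bar being 1 library. All bars are above 0, the bars of knockout 2 exceed those of knockout 1 by up to 1.5, and for Zfp36 the knockout bars are level at 0.90 and 0.91.

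The knockout libraries were not alike for these genes, although they carry the same label. Knockout 2 was above knockout 1 for 10 of 10, against 50.3% of all tested genes, and the gap was 1.5 on the log2 scale for Egr1, 1.38 for Fosb, 1.07 for Nr4a1, 0.90 for Atf3 and 0.88 for Fos. It was 0.62 for Dusp1, 0.52 for Ier2, 0.31 for Junb, 0.10 for Jun and 0.00 for Zfp36. The gap was at least 0.5 for 7 of the 10, against 5.82% of all tested genes, and at least 1 for 3, against 1.77%. The median gap of the 10 genes was 0.75, whereas the median absolute gap over all tested genes was 0.14. For Egr1, Fosb, Nr4a1, Atf3 and Fos the gap was larger than for 95% to 98.6% of tested genes, and for Zfp36 it was smaller than for all but 0.92%.

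Against the Hez library, both knockout libraries lay above Hez for Junb, Nr4a1 and Zfp36, 3 of 10 genes, a share near the 34.2% of all tested genes. Both lay below Hez for Fosb, against 31.9% of tested genes, and Hez lay between the knockouts for the other 6. The median log2 fold of knockouts over Hez was 0.25. edgeR called 0 of the 10 against Hez, with 2 at an unadjusted p below 0.05 against 4.61% of tested genes, and DESeq2 and limma-voom also called 0, while 0.00664% of all tested genes were called by edgeR. Without knockout 2 the median against Hez was -0.09, and without knockout 1 it was 0.51, so its sign rests on 1 library.

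Hez against wild type rests on 1 library each and has no replicate check. Hez was higher by at least 1 on the log2 scale for 4 of 10 genes, against 1.08% of all tested genes, and 0 of the 10 were lower by as much, against 2.36%. The 4 were Fosb (1.75), Egr1 (1.46), Fos (1.34) and Nr4a1 (1.07). The smallest differences were those of Jun (0.32), Ier2 (0.37) and Junb (0.44). The knockout and Hez comparisons share the wild-type library, so a low wild-type value enters both.

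Compared per length within a library, Jun, Dusp1 and Zfp36 were the 3 most abundant of the 10 in every library, and Atf3 and Fosb the least. Jun ranked first at 96.1 FPKM in knockout 1, 101 in Hez and 81.6 in wild type, but in knockout 2 it stood at 104 FPKM below Dusp1 at 113. The ratio of Fos to Jun was 0.372 and 0.638 in the knockout libraries, 0.523 in Hez and 0.257 in wild type. Of the summed FPKM of the 5 AP-1 genes, Jun made up 54.9% and 45.6% in the knockout libraries, 52.5% in Hez and 62.8% in wild type. Fos made up 20.4% and 29.1% in the knockout libraries, 27.5% in Hez and 16.2% in wild type. The ratio of Junb to Jun was 0.410 and 0.475 in the knockout libraries, 0.319 in Hez and 0.295 in wild type. These ratios do not depend on library scaling, and wild type was lowest in each of the 5 ratios plotted. Of the 10 genes, Jun differed least from wild type in each of the other libraries. The low wild-type ratios therefore follow from the levels above, for genes chosen with the contrast known, and are no separate check.

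**Figure D3:**
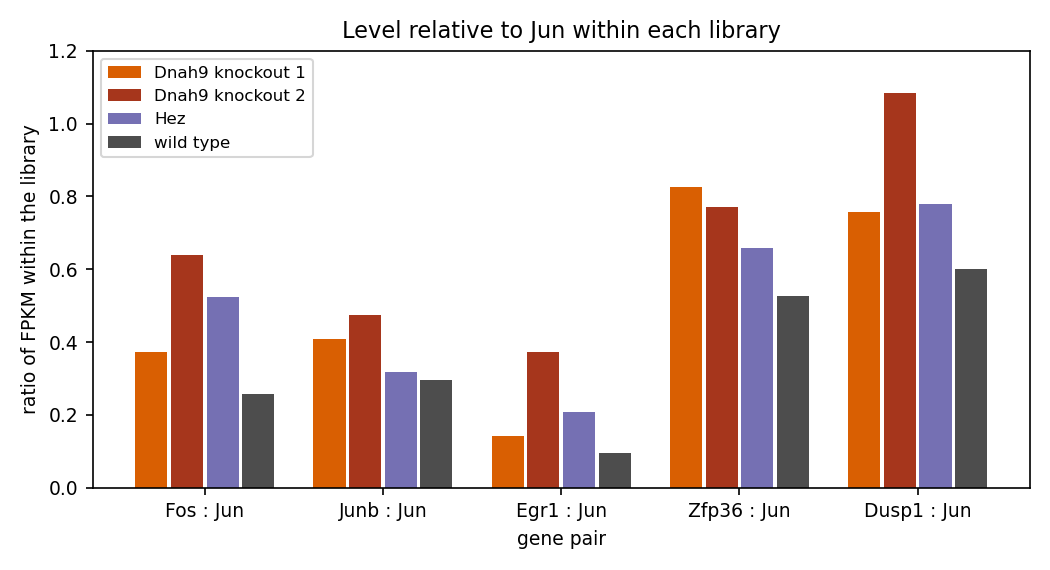
Ratio of the FPKM of Fos, Junb, Egr1, Zfp36 and Dusp1 to that of Jun within each library, in the order Dnah9 knockout 1, Dnah9 knockout 2, Hez and wild type. The wild-type bar is the shortest of each group, at 0.0951 for Egr1 and 0.600 for Dusp1, and the Dusp1 bar of knockout 2 exceeds 1, at 1.08.

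Close relatives of the 10 genes did not all share their pattern. Egr3 stood at 2.83 and 7.17 CPM in the knockout libraries, 7.26 in Hez and 2.53 in wild type, the order seen for Fosb. Egr2 had 11.4 and 13.3 CPM in the knockout libraries, below 17.1 in Hez and 15.7 in wild type. Nr4a3 ran against Nr4a1, at 16.0 and 4.66 CPM in the knockout libraries, 8.89 in Hez and 13.8 in wild type. Nr4a2 had 13.3 and 13.5 CPM in the knockout libraries, 13.85 in Hez and 11.5 in wild type. Fosl2 had 60.2 and 74.1 CPM in the knockout libraries, 75.9 in Hez and 70.5 in wild type, and Jund had 18.1 and 13.8 in the knockout libraries, 15.5 in Hez and 12.6 in wild type. Zfp36l1 and Zfp36l2, which also bind AU-rich elements, had log2 folds of knockouts over wild type of 0.25 (SE 0.161) and 0.06 (SE 0.108). All 8 relatives had an edgeR adjusted p of 0.996 against wild type.

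Other immediate early genes were examined as 2 lists of 57 genes, 55 of them tested. Log2 folds of knockouts over wild type were positive for 48 of the 55, with a median of 0.19. Over all tested genes 7690 of 15055 were positive, with a median of 0.00. Both knockout libraries lay above wild type for 32 of the 55 (58.2%), against 33.0% of all tested genes. Hez also lay above wild type for 40 of the 55 (72.7%), against 49.5%. The lists were chosen with earlier results known, and these counts share the 1 wild-type library, so they are a description. edgeR called 0 of the 55 in either direction, with 8 higher and 0 lower at an unadjusted p below 0.05, and DESeq2 and limma-voom called 0. Over Hez, 33 of the 55 were positive, with a median of 0.04, against 7898 of 15055 and a median of 0.01 over all tested genes. There edgeR called 0, with 6 at an unadjusted p below 0.05, limma-voom called 0 and DESeq2 called 1, Thbs1, a matrix glycoprotein gene named for that call after its values were seen. Thbs1 had 283 and 235 CPM in the knockout libraries, 145.5 in Hez and 205 in wild type, so Hez was its lowest library. Against wild type, 16 of 22 transcription factors were positive, with Cebpb (0.43, SE 0.114, edgeR adjusted p = 0.547), Cebpd (0.36, SE 0.146, adjusted p = 0.908) and Nfil3 (0.35, SE 0.196, adjusted p = 0.996) at the smallest p. Of the genes that encode other proteins, 32 of 33 were positive, among them Socs3, a feedback inhibitor of cytokine signalling (0.56, SE 0.129, edgeR adjusted p = 0.445), and the small GTPase gene Rhob (0.35, SE 0.0956, adjusted p = 0.566).

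Some genes of these lists were also higher in knockout 2 than in knockout 1. Ccn1, a secreted matrix protein gene picked here after its values were seen, stood at 78.9 and 308 CPM in the knockout libraries, 132 in Hez and 75.4 in wild type. Klf2, likewise picked, had 150 and 292 CPM in the knockout libraries, 197 in Hez and 168 in wild type. Per1, a clock gene that is also induced early, ran the other way, at 114 and 51.8 CPM in the knockout libraries, 118 in Hez and 80.6 in wild type. Knockout 2 was above knockout 1 for 13 of 22 of the factors (59.1%) and 22 of 33 of the other genes (66.7%). The share over all tested genes was 50.3%.

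**Figure D4:**
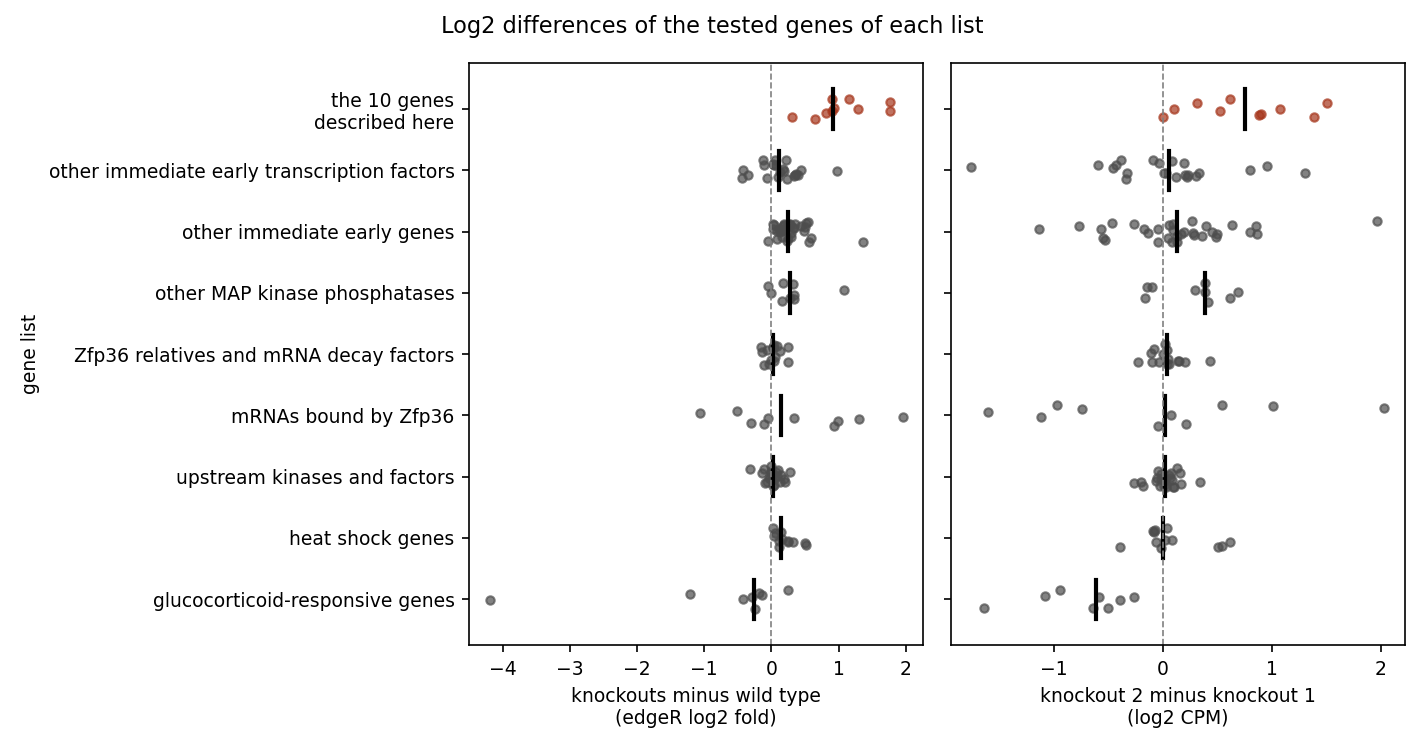
Log2 differences of single genes (points) in the 10 genes and in 8 other lists, as knockouts over wild type (left) and knockout 2 minus knockout 1 (right), with list medians as black bars. The medians of the 10 genes are 0.92 and 0.75, 7 of the other lists have medians of 0.03 to 0.27 on the left and of 0.00 to 0.38 on the right, and the glucocorticoid-responsive genes have medians of -0.26 and -0.61.

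The other MAP kinase phosphatases, relatives of Dusp1, had positive log2 folds over wild type in 8 of 9 genes, against 7690 of 15055 tested genes. The median of the 9 was 0.27, and Dusp7 counted as positive at 0.001. Only 4 of the 9 (44.4%) exceeded the wild-type level in both knockout libraries, against 33.0% of tested genes. List medians of the log2 difference from wild type were 0.05 for knockout 1 alone and 0.44 for knockout 2 alone. The list median therefore rested mainly on knockout 2. edgeR called 0 of the 9, with 2 higher at an unadjusted p below 0.05, and DESeq2 and limma-voom called 0. Those 2 were Dusp16 (0.33, SE 0.112, edgeR adjusted p = 0.776) and Dusp2, a phosphatase of immune cells (1.08, SE 0.365, adjusted p = 0.781). Dusp2 had 6.21 and 5.54 CPM in the knockout libraries, 3.21 in Hez and 2.78 in wild type, so for it Hez stood near wild type and not near the knockouts. Dusp8 was next by p (0.32, SE 0.186, edgeR adjusted p = 0.996).

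The kinases and factors upstream of immediate early genes lay close to the median of all genes, at 0.03, with 13 of 23 positive. edgeR called 0 of the 23, with 1 higher (Mef2c, 0.28, SE 0.112) and 1 lower (Egfr, -0.31, SE 0.129) at an unadjusted p below 0.05, and DESeq2 and limma-voom called 0. The MAP kinase gene Mapk3 followed by p, with a log2 fold of 0.21 (SE 0.093). Relatives of Zfp36 and factors of mRNA decay had a median of 0.03, with 9 of 15 positive, 0 called by edgeR, DESeq2 or limma-voom and 0 at an unadjusted p below 0.05. Beside Zfp36l1, the smallest p were those of Cnot1, the scaffold of the CCR4-NOT deadenylase (-0.15, SE 0.0952), and Zc3h12a, which encodes the endonuclease Regnase-1 (0.24, SE 0.20), both with an edgeR adjusted p of 0.996.

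The mRNAs that Zfp36 is known to bind were split in direction. Of 10 tested, 5 had positive log2 folds, edgeR, DESeq2 and limma-voom called 0, and 1 was lower at an unadjusted p below 0.05. That one was Tnf, a cytokine gene, with 3.26 and 3.15 CPM in the knockout libraries, 6.65 in Hez and 6.73 in wild type (log2 fold -1.07, SE 0.319, edgeR adjusted p = 0.653). Il1b stood at 52.55 and 17.2 CPM in the knockout libraries, 45.3 in Hez and 17.5 in wild type, so knockout 1 stood near Hez and knockout 2 near wild type. Ccl2 had 29 and 30 reads in the knockout libraries, 30 in Hez and 12 in wild type. Counts were also low for Il6 (2 to 14 reads per library), Csf2 (4 to 20), Cxcl1 (11 to 18) and Cxcl2 (11 to 42). The direction of these genes is therefore uncertain.

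Heat shock genes, another set of quickly induced genes, had positive log2 folds in 12 of 12, against 7690 of 15055 tested genes. Their median was 0.15, with folds down to 0.03. Both knockout libraries lay above wild type for 9 of the 12, against 33.0% of tested genes. edgeR called 0 of the 12, with 3 higher at an unadjusted p below 0.05, against 273 of 15055. DESeq2 and limma-voom called 0. Hspa8, a constitutive chaperone, had the smallest p, with 924 and 933 CPM in the knockout libraries, 835 in Hez and 744 in wild type (log2 fold 0.32, SE 0.0753, edgeR adjusted p = 0.445). Hspa1a and Hspa1b, near-identical inducible chaperone genes whose reads may be split between them, are uncertain for that reason and were chosen after their values were seen. Hspa1a had 62 and 94 reads in the knockout libraries, 32 in Hez and 55 in wild type, and Hspa1b had 125 and 179 in the knockout libraries, 120 in Hez and 109 in wild type. Dnaja1 (0.25, SE 0.0978) and Hspb1 (0.24, SE 0.102), both chaperone genes, came next by p. Knockout 2 was above knockout 1 for 6 of the 12, with gaps of 0.62 for Hspa1a, 0.54 for Hspa1b and 0.50 for Dnajb1, and -0.39 for Hsph1, so the members went both ways around a median of 0.00.

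Dusp1, Zfp36 and Per1 are also glucocorticoid targets in many cell types. Of 8 other tested glucocorticoid-responsive genes, 1 had a positive fitted fold against wild type, and 2 were lower at an unadjusted p below 0.05. Taken singly, the knockout libraries differed: on the log2 scale knockout 2 had a list median of -0.81 relative to wild type, but knockout 1 had 0.11. Only Zbtb16 and Fkbp5 fell below the wild-type level in knockout 1, so the other negative folds came from knockout 2. Zbtb16 passed the adjusted threshold and fell (log2 fold -4.19, SE 0.124, edgeR adjusted p = 9.14e-06). Fkbp5 (-1.22, SE 0.209, edgeR adjusted p = 0.248) and Lcn2 (0.25, SE 0.186, adjusted p = 0.996) came next by p. The DESeq2 Wald test called Zbtb16 and Fkbp5, and limma-voom called Zbtb16 alone. Over the tested alternatives the adjusted p of Zbtb16 ran between 1.79e-82 with DESeq2 and 0.820 with limma on log2 FPKM and no filter, which ended its call. Knockout 2 was below knockout 1 for all 8, with a median gap of -0.61, opposite in sign to the gap of the 10 genes.

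Among 10600 tested genes with a mean of at least 10 CPM outside the 10, those whose 3 differences from wild type lay nearest the median of the 10 genes were Snai2, Trim32, Wnt2, Kcnj2 and Rbm12b1. Their Euclidean distances on the log2 scale, over knockout 1, knockout 2 and Hez, were 0.42, 0.50, 0.56, 0.56 and 0.58. Snai2, a zinc finger transcription factor gene, stood at 12.6 and 16.9 CPM in the knockout libraries, 15.5 in Hez and 9.32 in wild type. Kcnj2, an inward rectifier potassium channel gene, had 21.1 and 48.6 CPM in the knockout libraries, 27.5 in Hez and 19.25 in wild type. Trim32, a ubiquitin ligase gene, had 21.2 and 27.0 CPM in the knockout libraries, 22.2 in Hez and 15.7 in wild type. Wnt2, which encodes a secreted Wnt ligand, had 19.2 and 19.3 CPM in the knockout libraries, 21.3 in Hez and 12.2 in wild type. With 4 libraries this likeness is only a description.

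The summed level of some cell type markers was lowest in wild type, as for the 10 genes, and that of others was highest there. Summed over 4 ciliated cell markers, the level was 513.5 and 507.5 CPM in the knockout libraries, 454 in Hez and 648 in wild type, with 4 of 4 markers lower in both knockouts than in wild type, as were 33.4% of all tested genes. Summed over 3 smooth muscle markers it was 1117.5 and 995 CPM in the knockout libraries, 836 in Hez and 1406 in wild type, with 3 of 3 lower. Summed over 3 club cell markers it was 16456 and 13540 CPM in the knockout libraries, 15176.5 in Hez and 19008 in wild type, with 3 of 3 lower. The gap between the knockout libraries came with a gap in 4 neutrophil markers, which summed to 369 CPM in knockout 1 and 117.5 in knockout 2, with 214 in Hez and 229 in wild type. It also came with 3 alveolar macrophage markers at 808 and 1129 CPM in the knockout libraries, 602 in Hez and 597 in wild type, with 3 of 3 higher in both knockouts than in wild type, against 33.0% of all tested genes. Summed over 4 alveolar type 2 markers, the level was 23491 and 22523 CPM in the knockout libraries, 20714 in Hez and 20220.3 in wild type, with 4 of 4 higher in both knockouts. Summed over 4 endothelial markers it was 2976 and 2997 CPM in the knockout libraries, 3062 in Hez and 2743 in wild type, again with 4 of 4 higher, so wild type was lowest for both types. Wild type also had the lowest sum for alveolar type 1, alveolar macrophage, T cell and B cell markers. The 3 B cell markers had a median gap of -0.60 between knockout 2 and knockout 1. Cardiac muscle, adipocyte and mesothelial markers were lower in both knockouts than in wild type for every gene listed. The 5 cardiac muscle markers summed to 664 and 788 CPM in the knockout libraries, 1004 in Hez and 1048 in wild type. The 3 adipocyte markers summed to 43.15 and 37.0 CPM in the knockout libraries, 85.7 in Hez and 84.5 in wild type. The 3 mesothelial markers summed to 210.0 and 165.5 CPM in the knockout libraries, 214 in Hez and 238 in wild type, with a median gap of -0.75 between knockout 2 and knockout 1. Skeletal muscle and erythroid markers, 3 each, were also all lower in both knockouts. No marker found in the table was at 0 reads in any library, 1 of 3 T cell markers was not analysed here, and the part of these cell types in the levels of the 10 genes was not tested. Mitochondrially encoded genes took 3.02% and 3.23% of reads in the knockout libraries, 3.09% in Hez and 3.36% in wild type.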

How the data were processed

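Lung RNA of 4 mouse libraries was sequenced after TruSeq library preparation, per the labels' protocols. The authors deposited 1 table with read counts and FPKM per gene, per the file headers. FPKM equalled the deposited count divided by gene length and library total for every nonzero value, within a relative tolerance of 1e-06. Per the submitters' processing notes, the build is GRCm39. The aligner, counter, annotation and use of strand were not given in the sources used here. Groups were taken from the labels. Counts of 21931 genes were filtered with filterByExpr (minimum count 10), leaving 15055, scaled by TMM and fitted with the edgeR 4.0.16 quasi-likelihood test in R 4.3.3 over 3 groups (1 residual degree of freedom), with Benjamini-Hochberg adjustment at 0.05. Hez and wild type, with 1 library each, were compared as log2 CPM with a prior count of 2. Alternatives used DESeq2 1.42.0, limma 3.58.1 (voom, or log2 FPKM after a filter at a mean of 1), other scalings and filters, and each library left out. The scripts were tested on simulated data.

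The 10 genes and all gene lists were chosen with earlier results of these data known. From each list the text names the 3 tested genes with the smallest p against wild type and any past the threshold, then the 5 genes nearest the median pattern, and other genes as relatives or where said to be chosen after their values were seen. 1 gene that this rule names is not reported here. Promoters were matched by symbol to RefSeq windows of GRCm38.p6, a different build from the counts, and their coordinates were not converted.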

Additional observations from a re-analysis of the deposited data

How the results depend on the processing

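The fit had 1 residual degree of freedom, from the knockout pair. All 10 genes kept a positive log2 fold over wild type in each alternative that tested them; Fosb was lowest, at 0.01 with wild type and Hez as 1 group. The median fold over wild type, 0.92, was 0.50 with that group. Against Hez, the median ranged from -0.09 to 0.51 and the positive genes from 3 to 9 when 1 library was left out. Without knockout 2 the median reversed, to -0.089, and 3 genes were positive. Genes called against wild type numbered 8 with edgeR, 4 with no filter, 4 at a mean of at least 10 CPM, 16 with the DESeq2 Wald test and 2 with wild type and Hez as 1 group. limma on log2 FPKM called 1 with each pseudocount, and 0 with no filter, with 1021 at an unadjusted p below 0.05. Against Hez, edgeR called 1, DESeq2 7, and limma on log2 FPKM 0 with either of the lower pseudocounts and 0 with no filter, with 558, 560 and 897 at an unadjusted p below 0.05. The cause was not tested. No paired analysis was possible because replicate numbers follow accession order and pair no samples.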
